A study of Mus musculus with 14 samples.

Results

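Group 2 innate lymphoid cells (ILC2s) from mouse lung that lacked Blimp-1 were compared with Control ILC2s after in vitro activation, across every gene of the deposited table. The comparison rests on 6 of the 14 RNA-seq libraries of the series, 3 labelled Blimp-1-deficient and 3 labelled Control, which the labels number as separate mice, and its members are all 53278 genes listed for those libraries. Blimp-1-deficient cells carry the genotype Blimp-1IL7RaCre, in which a Cre recombinase driven by the Il7r gene acts on a floxed Prdm1 allele, and Control cells carry ControlIL7RaCre. This Cre is active in all innate lymphoid cells and also in T cells, B cells and NK cells, so the donor mice lacked Blimp-1 in more than ILC2s. The donors were female, age-matched and over 6 weeks old. ILC2s were sorted from whole lung as live, lineage-negative, CD90.2+ and CD3- cells, and both groups were then cultured for 72 h with IL-33 and IL-25 at 20 ng/mL each. The study's methods add IL-2 to this culture, which the labels do not list.

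ILC2s are tissue-resident lymphocytes without antigen receptors that answer the alarmins IL-33 and IL-25 with type 2 cytokines. Blimp-1, encoded by Prdm1, is a zinc finger repressor known for driving plasma cell differentiation and for restraining inflammatory gene programs in T cells. Its zinc fingers read a sequence that resembles the element bound by interferon regulatory factors, so the same promoter letters can be read by proteins of either kind.

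Control replicate 2 stood apart from the other libraries before any comparison. In this library 77.6% of 13570188 counts lay on 8 ribosomal loci, against 0.285% to 0.972% of 60715362 to 76448945 counts in the other 5, and only 3041539 counts were left for all other genes. Among the 9442 genes with a mean of at least 500 counts, the SD of the log2 ratio was 0.661 to 0.689 between Control 2 and the other Controls, whereas it was 0.217 between Controls 1 and 3 and 0.145 to 0.206 between Blimp-1-deficient libraries. A summed list of 9 stromal genes, which includes collagens, reached 6070 CPM in Control 2, 276 and 443 CPM in Controls 1 and 3 and 579 to 965 CPM in Blimp-1-deficient libraries. Values below are from the comparison without Control 2 unless stated, and the main counts and the genes of largest change are given with it as well. CPM here is the count scaled to 1e6 counts outside the ribosomal loci, after TMM normalization. At these depths 3 counts, the limit allowed by a count of 0, equal 0.925 CPM in Control 2 and 0.0401 to 0.0502 CPM elsewhere, for counting error only. In bulk libraries such as these, fewer cells of one kind and less RNA per cell cannot be told apart.

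Prdm1, the gene targeted by Cre, was examined first. On chromosome 10 of GRCm38 (44437177 to 44528501, minus strand), it had 97.2, 117 and 94.9 CPM in Controls 1, 2 and 3, compared with 19.1, 14.9 and 14.8 CPM in the deficient replicates in the same order. All deficient libraries thus lay below all Controls. Without Control 2 the log2 fold change was -2.57 ± 0.11 (standard error) at an adjusted p of 0.000134, and it was -2.68 with all 6 libraries (adjusted p = 0.00441). The counts are summed over the whole gene and do not separate deleted from retained exons. ILC2 genes were present in both groups, with Il1rl1 (the IL-33 receptor chain ST2) at 1980 to 2430 CPM in Controls and 1650 to 1890 CPM in deficient cells, and Thy1, the sorting antigen CD90, at 150 to 191 and 227 to 278 CPM.

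Loss of Blimp-1 went together with broad changes when Control 2 was left out and with few when it was kept. Without Control 2, out of 17968 genes tested, 1483 had a higher level in deficient cells and 1027 a lower one (14.0% in all, 8.25% higher and 5.72% lower). With all 6 libraries, 78 were higher and 53 lower out of 17335 (0.756%, 0.450% and 0.306%), and each of these 131 was also found without Control 2. The terms rose and fell are used below for genes with an edgeR adjusted p below 0.05 without Control 2, and genes that also passed with all 6 libraries are named as such. Over all 6 libraries 11.9% of the tested genes had an unadjusted p below 0.05 (31.2% without Control 2), and DESeq2 gave 581 rises and 473 falls, against which the same counts within a list are to be read. Rises were larger than falls: the median log2 fold change was 0.93 among genes that rose, of which 688 exceeded 1, and -0.41 among genes that fell, of which 141 were below -1. Among tested genes, every deficient library exceeded both remaining Controls in 25.6% and lay below both in 24.4%. Over all 6 libraries these shares were 13.0% and 9.61%.

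Control 2 affected rises and falls unequally. Of the genes that fell without it and could also be tested with it, 1007 of 1016 kept a negative log2 fold change over all 6 libraries. Of the genes that rose, 1119 of 1471 stayed above 0, and in each of the 352 that turned negative Control 2 had the highest level of the 6 libraries. The 1119 that stayed above 0 had a median log2 fold change of 0.81 without Control 2 and of 0.69 with it. For the 352 that turned negative these medians were 1.7 and -1.04, and stromal genes were among the 352. Sparc, a matrix glycoprotein, measured 137, 905 and 124 CPM in Controls 1, 2 and 3 and 194, 207 and 224 CPM in deficient libraries.

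**Figure D1:**
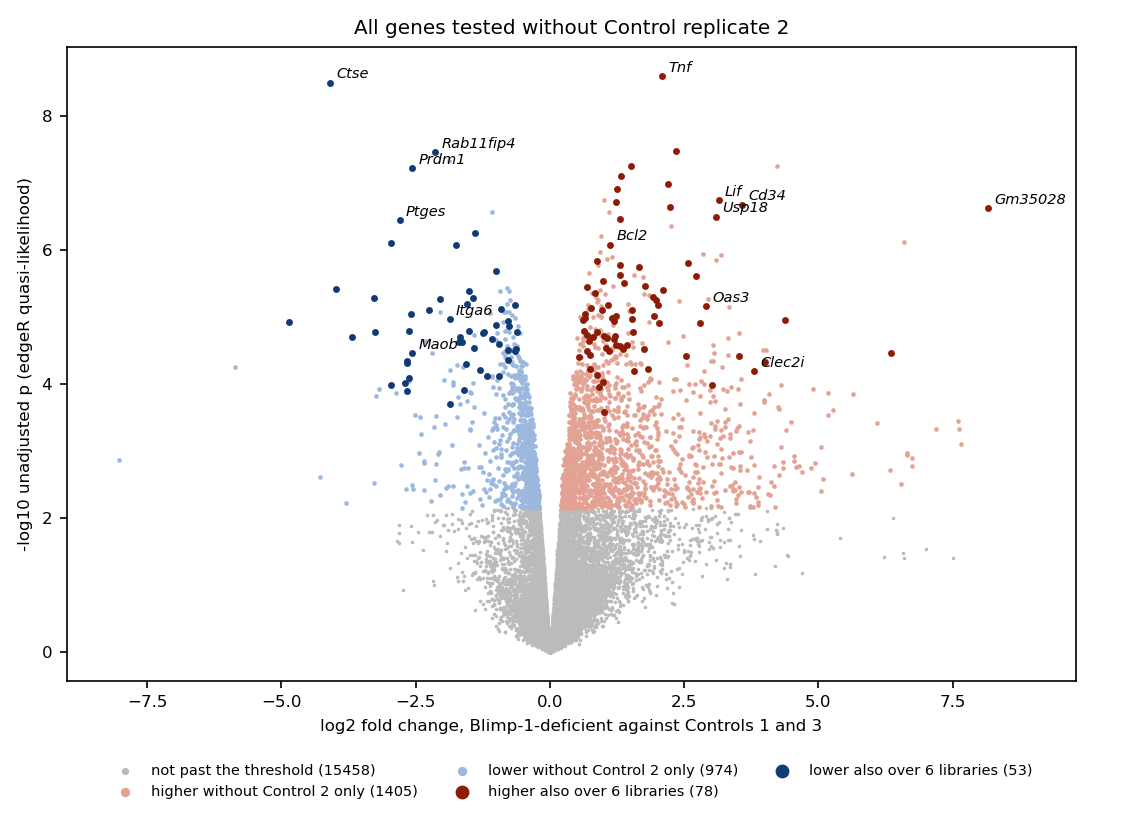
Log2 fold change of each of the 17968 genes tested without Control 2 (horizontal axis) against the unadjusted p on a -log10 scale (vertical axis); pale colours mark genes past an adjusted p of 0.05 and dark colours those that also passed with all 6 libraries. The 78 dark red points lie on the right and the 53 dark blue points on the left, with Ctse, Tnf and Prdm1 among the smallest p.

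The genes of largest change were named among those whose groups do not overlap in the 6 libraries. Among the named rises, the tested gene nearest to Prdm1 had the largest. Gm35028, a lincRNA on the same strand that starts and ends between 44418400 and 44424324 on chromosome 10, had 0.031, 0 and 0.176 CPM in Controls 1, 2 and 3 and 40.7, 29.7 and 24.8 CPM in deficient replicates 1, 2 and 3. This was a log2 fold change of 8.17 ± 0.44 (standard error) at an adjusted p of 0.000246, and of 8.22 at 0.00856 when Control 2 was kept. Controls 1 and 2 lay below the level of 3 counts, and the fitted value rests on few Control counts: without Control 2 it was 7.47 when Control 1 was also left out and 9.90 when Control 3 was. Cd34, a sialomucin best known from haematopoietic progenitors and vessels, rose from 33.0, 11.7 and 25.2 CPM to 286, 361 and 404 CPM, a log2 fold change of 3.59 that also passed with all 6 libraries (adjusted p = 0.0198). Clec2i, a C-type lectin-like ligand of the NK gene region, was at 1.15, 1.23 and 0.447 CPM in Controls and at 13.9, 12.1 and 7.09 CPM in deficient cells, with a log2 fold change of 3.80 and passing in both comparisons (4.61 without Controls 1 and 2).

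Lif, a cytokine of the IL-6 family, measured 212, 163 and 153 CPM in Controls and 1530, 1570 and 1770 CPM in deficient libraries (log2 fold change 3.14, standard error 0.16; 3.18 and adjusted p = 0.00441 with all 6). Tnf measured 24.8, 19.1 and 25.2 CPM in Controls and 108, 109 and 104 CPM in deficient libraries, with a log2 fold change of 2.09 and of 2.17 with all 6. Both groups were tight for Tnf and lay far apart. Tnfsf15, which encodes the TNF family ligand TL1A, rose from 1.85 to 2.16 CPM in Controls to 9.94 to 13.7 CPM, passing in both comparisons with log2 fold changes of 2.57 and 2.53. Sema3b, a secreted semaphorin, rose from 2.91 to 3.37 CPM to 15.8 to 23.9 CPM and also passed in both. Sox5, a transcription factor, rose from 2.21 and 1.45 CPM in Controls 1 and 3 to 9.05 to 10.2 CPM, while Control 2 had 4.01 CPM and the adjusted p with all 6 libraries was 0.0753. The chemokine gene Cxcl10 showed 10.3, 0.617 and 4.78 CPM in Controls and 42.4, 27.2 and 47.8 CPM in deficient cells (adjusted p = 0.00791 and, with Control 2, 0.138). Of the remaining named rises, Rtp4, Usp18, Oas3, Ifit1 and Cmpk2 are interferon-stimulated genes and are named with their list. Ifi206, which is not in that list, measured 2.07, 3.70 and 2.14 CPM in Controls and 16.7, 9.95 and 17.3 CPM in deficient libraries. It passed in both comparisons, with log2 fold changes of 2.79 and 2.57. Rtp4 and Ifi206 share 10.5% and 17.6% of their 75-base stretches with Gm45338 and Ifi208, so reads may be split between these genes.

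Ctse had the largest fall among the named genes. This gene for cathepsin E, an endosomal aspartic protease (chromosome 1, 131638306 to 131675505), went from 94.5, 56.1 and 73.7 CPM in Controls to 5.18, 5.07 and 4.66 CPM in deficient libraries. The log2 fold change reached -4.09 ± 0.12 (standard error, adjusted p = 2.79e-05), or -3.94 when Control 2 was kept. Ptges, the terminal synthase for prostaglandin E, followed with 102, 48.1 and 133 CPM in Controls against 13.7, 17.9 and 19.1 CPM, a log2 fold change of -2.80 that also passed with all 6 libraries (adjusted p = 0.0474). Maob, a mitochondrial monoamine oxidase, fell from between 16.6 and 24.4 CPM to between 2.17 and 4.50 CPM and passed in both comparisons. Slc13a5, a citrate transporter, fell from 10.8, 12.0 and 5.08 CPM to between 1.01 and 1.48 CPM, again in both.

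Surface and trafficking genes were among the other named falls. Itga6, the integrin alpha 6 chain of laminin receptors, measured 253, 241 and 301 CPM in Controls and 67.4, 96.6 and 64.1 CPM in deficient libraries (log2 fold change -1.87 without and -1.82 with Control 2, adjusted p = 0.00167 and 0.0239). Rab11fip4, an effector of recycling endosomes, measured 54.0, 37.3 and 54.3 CPM against 13.6, 11.4 and 11.9 CPM. Sema5a, Tmem86a, Ptprv and P2ry2, the last a receptor for extracellular nucleotides, also passed in both comparisons, with log2 fold changes from -2.25 to -1.75 without Control 2. Kitl, the ligand of the receptor Kit, had 39.6, 19.4 and 39.0 CPM in Controls and 7.98, 10.4 and 5.17 CPM in deficient cells, with an adjusted p of 0.00229 without Control 2 and 0.0612 with it. Steap3, a ferrireductase, and Aldh3a1, an aldehyde dehydrogenase, fell by 2.04 and 1.88 on the log2 scale and had adjusted p of 0.0766 and 0.0895 with all 6. For Steap3, Control 2 had 31.4 CPM against 10.9 and 10.6 CPM in Controls 1 and 3, and the log2 fold change with all 6 was -2.73. Nkg7, a cytotoxic granule membrane protein, went from 9.42, 7.40 and 6.50 CPM to 3.86, 1.41 and 1.59 CPM, and its call was lost in 4 of the 5 fits that left out a further library (highest adjusted p = 0.172).

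**Figure D2:**
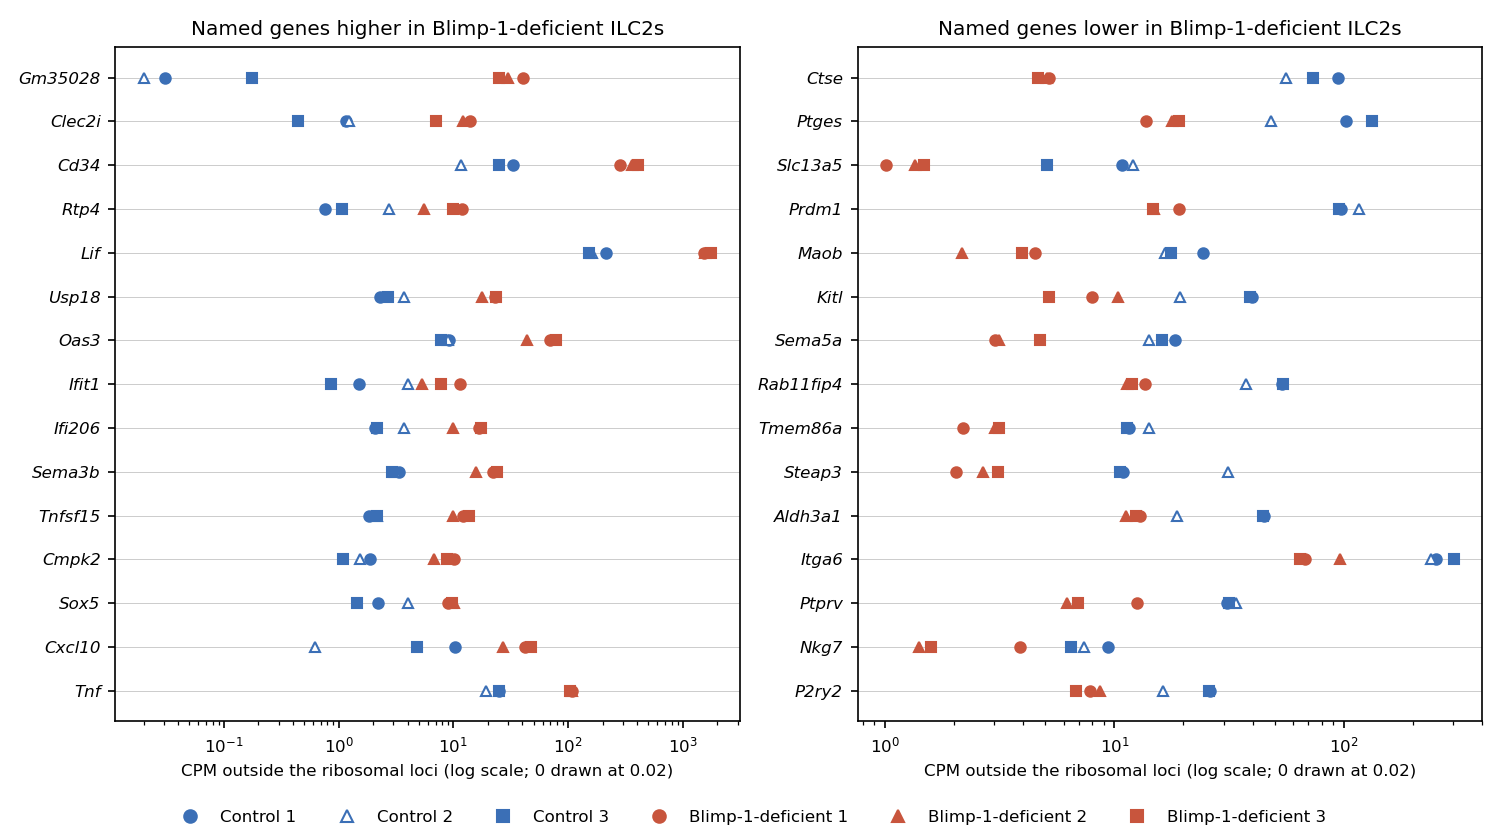
CPM of named genes in each of the 6 libraries on a log axis, with Controls in blue (Control 2 open) and Blimp-1-deficient libraries in red. Red and blue symbols do not overlap, which was a condition for naming the genes of largest change; a value of 0 (Gm35028 in Control 2) is drawn at 0.02.

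Without Control 2, antiviral interferon-stimulated genes had the largest share of rises among the lists drawn in the plot of list shares. These genes are induced by type I, II or III interferons through STAT proteins and IRF9, and many restrict viruses. Of 49 tested antiviral members, 38 rose, against 8.25% of all genes, and all 49 had a log2 fold change above 0 (median 1.20, against 0.01 over all genes tested). With all 6 libraries 5 passed, Oas3, Usp18, Cmpk2, Irf9 and Ifi213, while 40 had an unadjusted p below 0.05 and the median was 1.06. Usp18, a protease that removes ISG15 and dampens interferon receptor signalling, measured 2.31, 3.70 and 2.71 CPM in Controls and 23.02, 17.6 and 23.7 CPM in deficient libraries (log2 fold change 3.09 and 2.95). Oas3, an oligoadenylate synthetase that senses double-stranded RNA, measured 9.16, 8.94 and 7.83 CPM against 69.3, 43.8 and 77.7 CPM. Irf9, which binds DNA with STAT proteins, went from 28.9, 29.0 and 32.4 CPM to 60.8, 48.9 and 58.7 CPM. Stat2 rose by 1.10 on the log2 scale, with an adjusted p of 0.0617 with all 6 libraries.

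Other members of this list had low levels. Rtp4 was at 0.763, 2.77 and 1.07 CPM in Controls and at 11.9, 5.55 and 10.02 CPM in deficient libraries, with an adjusted p of 0.00283 without Control 2 and 0.0925 with it. Ifit1 was at 1.5, 4.01 and 0.867 CPM in Controls and at 11.4, 5.37 and 7.82 CPM in deficient libraries. In Oasl2 the groups overlapped through Control 2 alone, which had 5.86 CPM against 0.592 and 0.705 CPM in the other Controls and 3.28 to 8.55 CPM in deficient libraries. The 3 deficient libraries also differed among themselves. Deficient replicate 2 was the lowest of the 3 in 36 of the 38 members that rose, whereas it was the lowest in 617 of all 1483 genes that rose. Myeloid marker genes summed to 56.8 to 195 CPM in Controls and 52.3 to 173 CPM in deficient libraries, ranges that overlap, and their part in the interferon list was not tested.

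**Figure D3:**
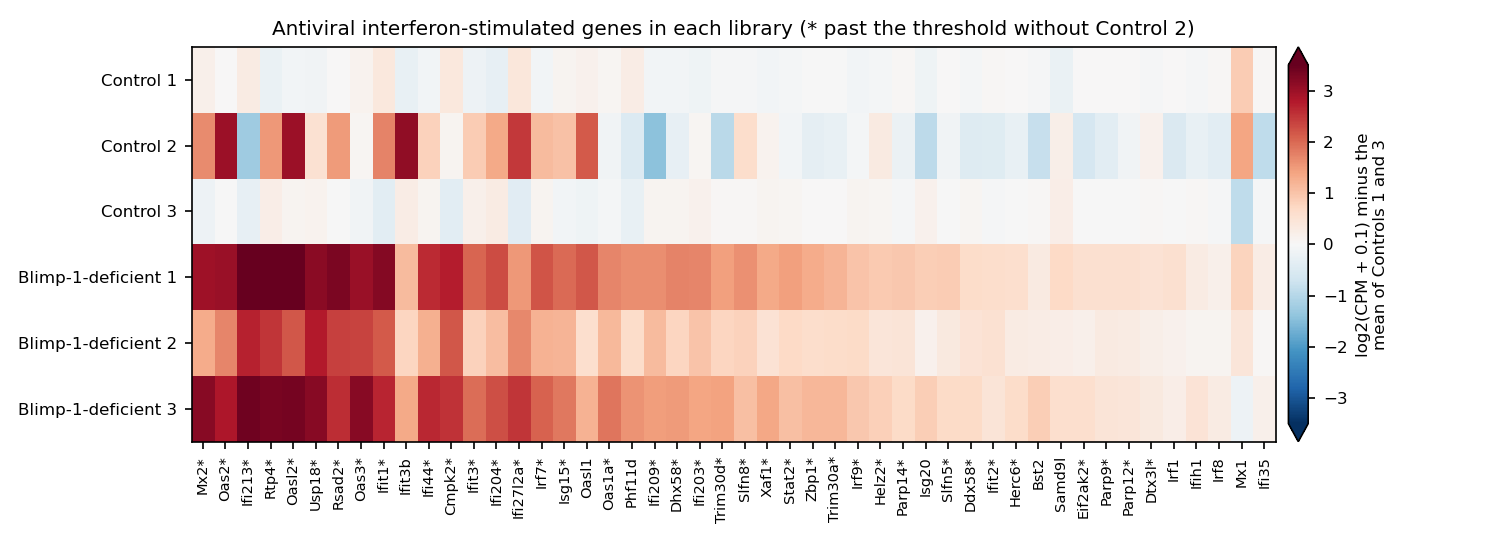
48 of the 49 tested antiviral interferon-stimulated genes (columns, ordered by log2 fold change) in each library (rows), coloured by log2(CPM + 0.1) minus the mean of Controls 1 and 3, with colours saturating beyond 3.5 in either direction. The 3 Blimp-1-deficient rows are red over most columns, replicate 2 more faintly, and Control 2 is mixed, with low-count genes such as Oas2 and Oasl2 also red.

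Of 19 interferon-induced GTPases 12 rose (63.2%, against 8.25% of all genes; median 1.11), and with all 6 libraries edgeR gave 0 of 18, although 15 had an unadjusted p below 0.05 and DESeq2 gave 12. Gbp2 measured 24.6, 21.3 and 16.6 CPM in Controls and 120, 63.5 and 63.1 CPM in deficient cells (log2 fold change 1.99, adjusted p = 0.0103 without and 0.0541 with Control 2). Gbp9 measured 20.0, 12.9 and 21.7 CPM against 57.2, 37.6 and 40.3 CPM. Among genes for MHC class I and its peptide supply, 11 of 20 rose (55.0%, against 8.25% of all genes) with a median of 0.40, and H2-Q7 passed in both comparisons at 103, 94.7 and 107 CPM in Controls and 182, 160 and 191 CPM in deficient cells. For H2-Q7, 17.0% of 75-base stretches also occur elsewhere, mainly in H2-Q10, so neighbouring genes may share its reads. H2-K1, a classical class I gene, rose by 0.57 on the log2 scale (adjusted p = 0.00719, and 0.241 with Control 2). Of 10 class II genes 8 had a log2 fold change above 0 and 4 rose (40.0%), H2-Aa, H2-Ab1, H2-Oa and Cd74; with all 6 libraries edgeR gave 0, DESeq2 gave 3 and 5 had an unadjusted p below 0.05. In the 4 that rose deficient replicate 1 was highest and replicate 3 lowest each time. Cd74, the invariant chain, had 9.98, 23.4 and 6.69 CPM in Controls and 60.9, 42.4 and 15.7 CPM in deficient libraries, so the groups overlapped once Control 2 was counted.

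Receptors and ligands of the interferon pathway were looked up after these values had been seen. The 20 type I and III interferon genes of the table had at most 8 counts in any library, and 15 had none, at a floor of 3 counts per library. Ifng had 31, 0 and 13 counts in Controls and 93, 92 and 73 counts in deficient libraries. Ifnar1 and Ifnar2, the chains of the type I receptor, rose by 0.29 and 0.41 on the log2 scale. Ifngr1 and Ifngr2, those of the interferon gamma receptor, rose by 0.62 and 0.53 (adjusted p = 0.0095 and 0.00328). With Control 2 the adjusted p of the 4 receptor genes lay between 0.0572 and 0.229.

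Promoter letters were compared because the element read by STAT and IRF complexes and that read by Blimp-1 are alike. RefSeq promoter windows of GRCm38.p6, 250 bases before to 50 bases after a start site, were available for 11597 of the tested genes. The first motif, GAAA followed by any 2 bases and GAAA on either strand, was found in 3.44% of all 32851 windows of the reference table. At least 1 window held it for 8.63% of 950 genes that rose, 3.85% of 780 that fell and 3.34% of 9867 that did neither. In the 43 genes that rose from the antiviral, GTPase and class I lists it was present in 51.2%, close to the 50.8% of all 65 tested genes of these lists with a window, whether or not they rose. It was present in 6.62% of the other 907 genes that rose. The second motif, AGNGAAAG on either strand, occurred in 8.63% of all windows, and in 12.1% of genes that rose, 8.85% of those that fell and 8.92% of the rest. Of the 43 genes from the interferon lists 3 held it (6.98%). The motifs can share bases, and overlapped in 16 of the 950 genes that rose, 1 of them among the 43, in 6 of the 780 that fell and in 59 of the 9867 others. A match is a description of letters and not of binding.

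The 120 bases before the start site are given for 4 genes that rose, to show the first motif alone (Oas3), repeated (Isg15) and overlapping the second (Gbp2 and Serpinb9). Each is written 5′ to 3′ on the strand of its gene, with bases of either motif in capitals. They lie at chr5:120777660-120777779 (minus strand), chr4:156200819-156200938 (minus), chr3:142620543-142620662 (plus) and chr13:33004421-33004540 (plus) of GRCm38.p6, in that order.
Oas3: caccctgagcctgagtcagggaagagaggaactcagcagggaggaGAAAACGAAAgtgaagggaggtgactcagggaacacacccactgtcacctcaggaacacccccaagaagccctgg
Isg15: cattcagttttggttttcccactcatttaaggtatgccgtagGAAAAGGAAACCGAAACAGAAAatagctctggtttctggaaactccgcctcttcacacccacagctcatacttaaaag
Gbp2: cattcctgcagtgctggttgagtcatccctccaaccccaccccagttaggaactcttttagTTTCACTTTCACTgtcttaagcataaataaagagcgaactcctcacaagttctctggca
Serpinb9: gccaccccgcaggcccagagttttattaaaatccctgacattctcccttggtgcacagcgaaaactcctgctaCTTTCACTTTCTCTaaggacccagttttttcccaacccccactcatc

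Serpinb9 encodes an inhibitor of granzyme B. It rose from 43.1, 29.9 and 38.0 CPM in Controls to 105, 107 and 141 CPM, passed in both comparisons (log2 fold change 1.53 and 1.63), and was picked for its promoter after its values were seen. Isg15, a ubiquitin-like modifier, measured 3.35, 6.47 and 2.90 CPM in Controls and 12.6, 7.18 and 11.4 CPM in deficient cells, with an adjusted p of 0.00686 without Control 2 and 0.211 with it.

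Of 13 tested genes that Blimp-1 is known to repress in B or T cells 6 rose (46.2%, against 8.25% of all genes), Il2, Cxcr5, Id3, Tcf7, Bcl6 and Ifng. All 13 had a log2 fold change above 0 without Control 2 (median 0.63) and 11 had one with all 6 libraries. Bcl6, the repressor that opposes Blimp-1 in germinal centres, went from 5.42, 4.93 and 4.99 CPM to 10.1, 9.99 and 7.43 CPM. Tcf7, the transcription factor TCF1, went from 5.54, 8.32 and 2.57 CPM to 18.1, 15.5 and 11.2 CPM. Il2 had 0.078, 0 and 0.122 CPM in Controls and 0.792, 0.987 and 1.07 CPM in deficient cells. With all 6 libraries edgeR gave 0 of the 13, 6 had an unadjusted p below 0.05 and DESeq2 gave 3. Id3 then had a log2 fold change of 0.00 in place of 0.61, as Control 2 had 35.8 CPM. Of 18 genes for cofactors and partner factors of Blimp-1, 4 fell (22.2%, against 5.72% of all genes), Prdm1 itself, Ikzf2, Ikzf1 and Id2, and Prdm1 was the one that also passed with Control 2.

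Lineage genes of innate lymphoid cells were described by list. In the ILC3 list 7 of 12 rose (58.3%, against 8.25% of all genes) and all 12 lay above 0 (median 1.40). In both comparisons 3 passed (25.0%, against 0.450% of all genes with all 6 libraries), Ltb and Tmem176a among them. Ltb, a membrane-bound TNF family ligand, measured 19.9, 15.7 and 18.9 CPM in Controls and 77.5, 65.6 and 55.6 CPM in deficient libraries (log2 fold change 1.77 and 1.82). Tmem176a, a membrane protein of the MS4A type, measured 48.2, 38.5 and 36.1 CPM against 97.3, 83.0 and 74.7 CPM. Il23r, the IL-23 receptor, went from 0.249, 0 and 0.501 CPM to 2.87, 3.13 and 2.07 CPM, with an adjusted p of 0.0873 with all 6 libraries. The list includes Ltb and Lta, which lie beside Tnf, so its members are not independent of that locus.

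Of 24 genes of ILC1s and NK cells, 3 rose (12.5%, against 8.25% of all genes) and 4 fell (16.7%, against 5.72%), and with all 6 libraries 1 passed, Eomes. Eomes, a T-box factor of NK cells, fell in both comparisons, from 2.91, 2.77 and 3.06 CPM to 0.681, 0.401 and 0.334 CPM (log2 fold change -2.67 and -2.65, adjusted p = 0.00327 and 0.0398). Klrd1, the CD94 receptor chain, Nkg7 and Fasl also fell, by 1.96, 1.81 and 1.31 on the log2 scale. Il18r1 and Il18rap, the chains of the IL-18 receptor, rose by 0.47 and 0.27, as did Tnfsf10 by 0.41, and these did not pass with Control 2. Of 24 ILC2 identity genes 5 rose (20.8%, against 8.25% of all genes) and 7 fell (29.2%, against 5.72%), with a median of 0.02. When Control 2 was kept, edgeR gave 0 of these, DESeq2 gave 5 rises and 5 falls, and 5 lay above and 4 below 0 at an unadjusted p below 0.05. Icos, a costimulatory receptor, measured 392, 260 and 357 CPM in Controls and 704, 659 and 700 CPM in deficient cells, and Ccr4 measured 82.6, 49.95 and 79.0 CPM against 155, 154 and 163 CPM, each with an adjusted p of 0.0561 with all 6 libraries. Klrg1, Il1rl1 and Il2ra fell by 1.01, 0.42 and 0.70 on the log2 scale, and for Klrg1 the groups overlapped through Control 2 at 167 CPM.

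Of 27 tested surface molecules for costimulation and restraint, 12 rose (44.4%, against 8.25% of all genes) and Ctla4 fell (3.7%, against 5.72%), and with all 6 libraries 1 passed. This was Icosl, the ligand of ICOS, at 12.6, 13.6 and 15.2 CPM in Controls and 29.5, 25.4 and 24.2 CPM in deficient cells. Cd226 and Cd200 rose by 0.95 and 1.08 on the log2 scale, Cd28 by 1.29 and Cd274, which encodes PD-L1, by 0.53. Ctla4, an inhibitory receptor, went from 8.58, 9.25 and 11.04 CPM to 3.04, 4.77 and 2.73 CPM, with an adjusted p of 0.0107 without Control 2 and 0.0757 with it. Among 18 chemokine receptors 3 rose (16.7%, against 8.25% of all genes), Ccr4, Cxcr4 and Cxcr5, and 5 fell (27.8%, against 5.72%), among them Ccr1, Ccr3, Ccr9 and Xcr1. When Control 2 was kept, edgeR gave 0 of these, DESeq2 gave 2 rises and 4 falls, and 3 lay above and 5 below 0 at an unadjusted p below 0.05. Ccr1 measured 185, 116 and 175 CPM against 109, 105 and 90.5 CPM. Ccr3, the eotaxin receptor, measured 5.22, 2.16 and 4.31 CPM against 1.58, 1.57 and 1.176 CPM.

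Genes of NF-kB and its feedback rose in 9 of 24 cases (37.5%, against 8.25% of all genes), and Bcl3 fell (4.17%, against 5.72%). Tnip1 and Tnfaip3, which restrain NF-kB, rose by 0.71 and 0.64 on the log2 scale, and Rel, a subunit, by 0.57. With Control 2 edgeR gave 0 rises of 24, DESeq2 gave 9 and 11 lay above 0 at an unadjusted p below 0.05. Of 25 AP-1 and immediate early genes 5 rose (20.0%, against 8.25% of all genes) and 2 fell (8.0%, against 5.72%), with a median of 0.02. Over all 6 libraries edgeR gave 0 rises and 1 fall, DESeq2 gave 2 and 2, and 7 lay above and 4 below 0 at an unadjusted p below 0.05. Egr3 fell in both comparisons, from 31.0, 33.9 and 25.2 CPM to 10.1, 12.5 and 9.03 CPM, whereas Egr2 rose from 2.94, 5.86 and 4.66 CPM to 6.84, 8.83 and 7.56 CPM without Control 2. Of 17 genes of cytokine feedback 5 rose and 5 fell (29.4% each, against 8.25% and 5.72% of all genes), and over all 6 libraries edgeR gave 0, DESeq2 gave 2 rises and 2 falls, and 4 lay above and 3 below 0 at an unadjusted p below 0.05. Zfp36, which encodes the mRNA decay factor tristetraprolin, fell without Control 2 by 1.11 on the log2 scale while its paralogue Zfp36l1 rose by 0.75. Zfp36l1 has 50.4% of its 75-base stretches in common with Gm26669, which overlaps it. In the same comparison Socs3 fell by 0.84 and Socs1 rose by 0.58. Bcl2, the survival factor, rose in both comparisons, from 81.3, 72.8 and 83.2 CPM to 168, 192 and 179 CPM (log2 fold change 1.12 and 1.16, adjusted p = 0.000512 and 0.0122). Bok and Pmaip1, which promote apoptosis, fell by 1.08 and 0.70 without Control 2. Of the 25 tested genes of the BCL-2 family and death receptors, 2 rose (8.0%, near the 8.25% of all genes). In this list 5 fell (20.0%, against 5.72% of all genes), and the median was 0.02. Over all 6 libraries edgeR gave 1 rise, that of Bcl2, and 0 falls, whereas DESeq2 gave 2 and 1.

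In cholesterol and fatty acid synthesis 15 of 31 fell, against 5.72% of all genes, 30 had a log2 fold change below 0 and the median was -0.34. Lss, lanosterol synthase, was the member that also passed with all 6 libraries, at 127, 123.02 and 139 CPM in Controls and 79.2, 89.2 and 86.7 CPM in deficient cells (log2 fold change -0.65 and -0.63, adjusted p = 0.00261 and 0.0490). Hmgcs1, which makes HMG-CoA, fell by 0.40 without Control 2, and with it the groups overlapped. Of the PPAR-gamma and lipid storage list 5 of 19 fell (26.3%, against 5.72% of all genes) and Angptl4 rose (5.26%, against 8.25%). The list was mixed, with 8 above 0 and a median of -0.02. With all 6 libraries DESeq2 gave 2 rises and 4 falls, and 3 lay above and 4 below 0 at an unadjusted p below 0.05. There edgeR gave 0 rises and 1 fall. This was Abca1, a cholesterol exporter, which went from 40.3, 54.9 and 41.3 CPM to 14.5, 17.0 and 14.8 CPM (log2 fold change -1.40 and -1.57). Pparg, a regulator of lipid uptake, measured 169, 116 and 160 CPM against 87.8, 108 and 102 CPM, with an adjusted p of 0.00418 without Control 2 and 0.206 with it.

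Of 27 genes for serine and one-carbon metabolism and amino acid supply 8 fell (29.6%, against 5.72% of all genes), whereas with all 6 libraries edgeR gave 0, DESeq2 gave 5 and 6 lay below 0 at an unadjusted p below 0.05. Slc3a2 and Slc7a5, the chains of a large neutral amino acid transporter, fell by 0.75 and 0.62 on the log2 scale, Phgdh, the first enzyme of serine synthesis, by 0.83 and Asns, asparagine synthetase, by 0.71. For these 4 the groups did not overlap over all 6 libraries and the adjusted p were 0.0515 to 0.114. Of the 75-base stretches of Phgdh, 35.8% are also found in Gm7901. Among 80 subunits of oxidative phosphorylation 13 fell (16.2%, against 5.72% of all genes), 77 lay below 0 and the median was -0.21. With all 6 libraries the median was -0.13, edgeR gave 0, DESeq2 gave 2 and 10 lay below 0 at an unadjusted p below 0.05. A like shift was seen in cytosolic ribosomal proteins, with 84 of 87 below 0 and a median of -0.20, of which 3 fell (3.45%) and 1 rose. Of 13 mitochondrially encoded subunits 0 fell. Of the 46 genes of ribosome biogenesis 7 fell (15.2%, against 5.72% of all genes; median -0.20 and, with Control 2, -0.03), and with all 6 libraries edgeR gave 0, DESeq2 gave 1 fall and 3 lay below 0 at an unadjusted p below 0.05.

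Of 37 genes of glycolysis and the hypoxia response 6 rose (16.2%, against 8.25% of all genes) and 2 fell (5.41%, near the 5.72% of all genes). Over all 6 libraries edgeR gave 0 rises and 1 fall, DESeq2 gave 3 and 2, and 4 lay above and 2 below 0 at an unadjusted p below 0.05. Slc2a3, the glucose transporter GLUT3, fell in both comparisons, from 75.5, 66.6 and 76.3 CPM to 24.8, 31.9 and 23.8 CPM (log2 fold change -1.51 and -1.47). Hk2, hexokinase, rose from 296, 161 and 293 CPM to 628, 632 and 640 CPM, with an adjusted p of 0.000251 without Control 2 and 0.0719 with it. Of 24 eicosanoid genes 3 rose (12.5%, against 8.25% of all genes) and 6 fell (25.0%, against 5.72%). Over all 6 libraries edgeR gave 0 rises and 1 fall, that of Ptges, whereas DESeq2 gave 2 and 4, and 5 lay above and 4 below 0 at an unadjusted p below 0.05. Without Control 2, Ptges, Alox5 and the leukotriene receptor gene Cysltr1 fell by 2.80, 1.07 and 0.57, and Ptger3, a prostaglandin E receptor, by 1.67. Ptgs2, the inducible cyclooxygenase, rose from 49.3, 88.8 and 57.3 CPM to 147, 99.7 and 182 CPM without Control 2, and Ptger4 rose from 56.5, 37.6 and 51.8 CPM to 92.1, 95.2 and 91.8 CPM (adjusted p = 0.0551 with Control 2). Ptger4 overlaps Gm15937, with 13.2% of its 75-base stretches in common. Nos2, the inducible nitric oxide synthase, was at 2.76, 0.308 and 2.25 CPM in Controls and 7.80, 6.54 and 7.55 CPM in deficient cells (adjusted p = 0.00247, and 0.208 with Control 2).

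Of 25 DNA replication genes edgeR gave 0 in either comparison, with 1 at an unadjusted p below 0.05 in each, and DESeq2 gave 1 without Control 2. Of 22 mitotic genes 4 rose (18.2%, against 8.25% of all genes), Aurkb, Cenpf, Nusap1 and Top2a, by 0.22 to 0.29 on the log2 scale. The median of the 22 was 0.02 and 12 lay above 0. When Control 2 was kept, edgeR and DESeq2 gave 0 and 1 had an unadjusted p below 0.05.

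**Figure D4:**
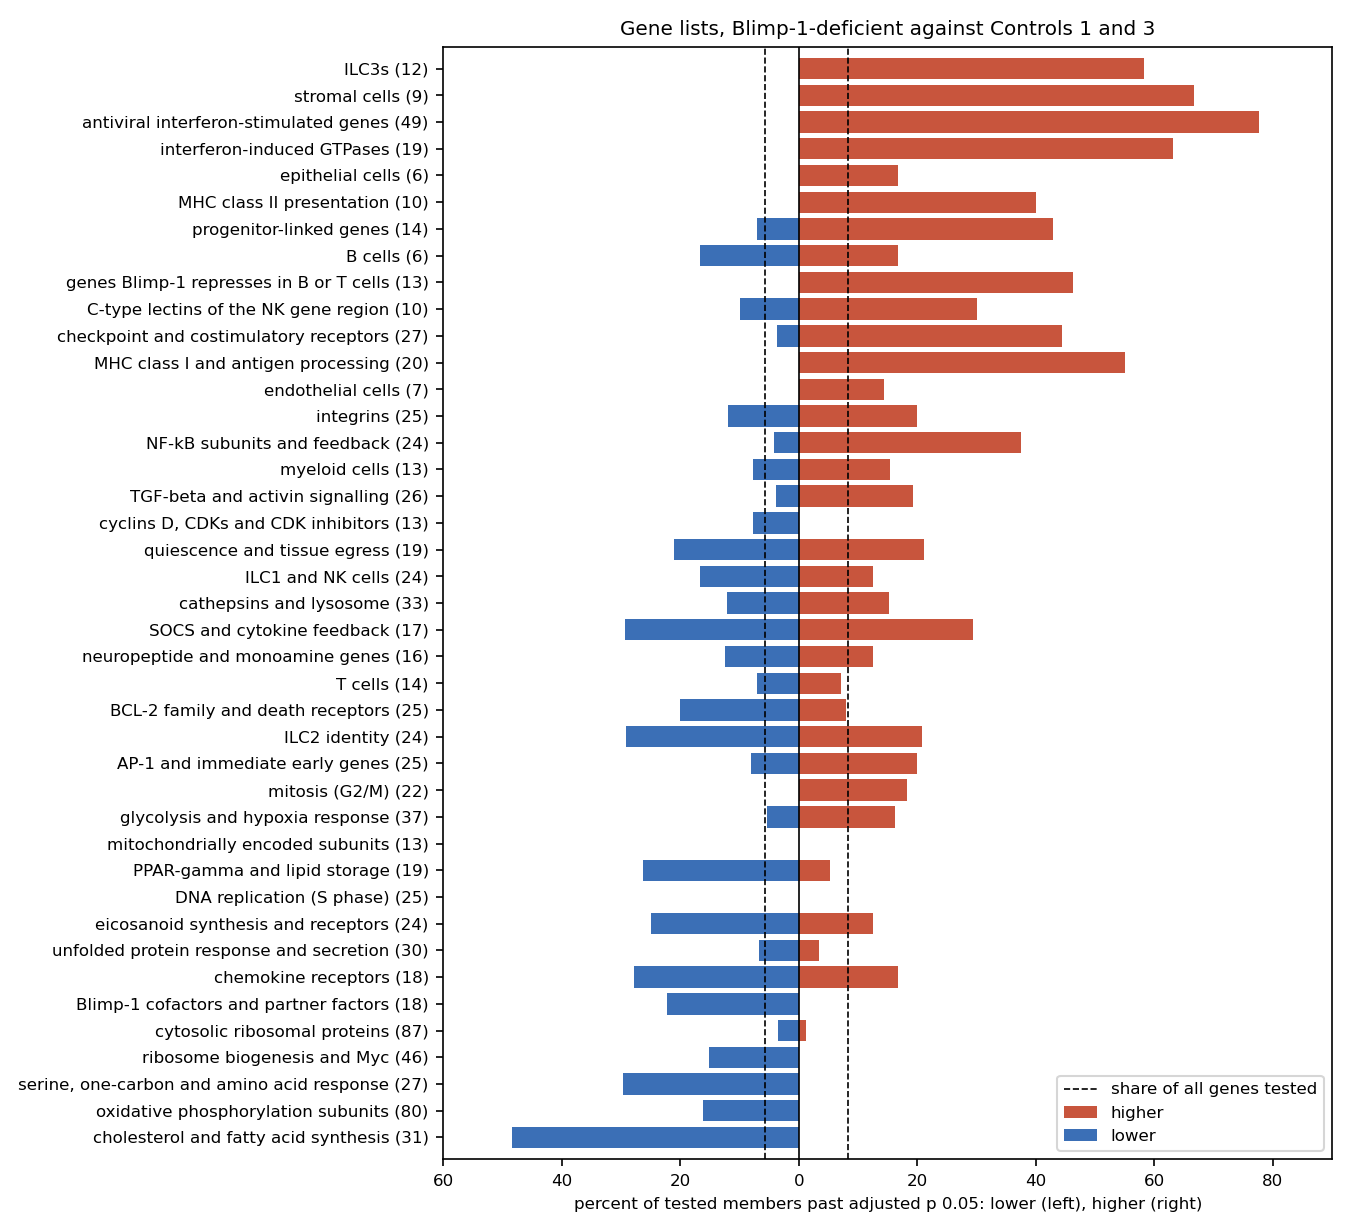
Percent of tested members of 41 gene lists that fell (left) or rose (right) without Control 2, with the number tested in brackets and dashed lines at 5.72% and 8.25%, the shares of all genes tested. The antiviral list reaches 77.6% on the right, stromal genes, which Control 2 reverses, 66.7% and GTPases 63.2%, and cholesterol and fatty acid synthesis reaches 48.4% on the left; the lists were chosen with earlier results known.

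Marker genes of other cell types were summed in each library. The T cell list summed to 140 to 151 CPM in Controls and 134 to 167 CPM in deficient libraries, with Cd3e at 5.55 to 7.71 and 5.82 to 6.83 CPM. Genes of mast cells and basophils summed to at most 1.69 CPM in any library. Epithelial genes summed to 8.63 to 17.7 CPM in Controls and 16.0 to 33.9 CPM in deficient libraries. Endothelial genes summed to 89.4 to 241 CPM and 312 to 384 CPM, of which Pecam1, an adhesion molecule that leukocytes also carry, made up 40.1 to 104 and 207 to 229 CPM. Stromal genes rose in 6 of 9 cases without Control 2 (66.7%, against 8.25% of all genes), with a median of 1.33. When Control 2 was kept, however, the median of the stromal genes was -0.92, edgeR and DESeq2 gave 0 and 1 had an unadjusted p below 0.05. Their part in other rises was not tested. Ly6c2, listed as a myeloid gene and also present on lymphocytes, fell in both comparisons, from 7.90, 10.8 and 5.18 CPM to 0.507, 0.268 and 0.735 CPM.

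Position on the genome was described for the 17548 tested genes with a single entry in GENCODE M21. Chromosome 10, which carries Prdm1, had 85 of 831 genes lower (10.2%), against 5.55% of the 16717 on other chromosomes, and 60 higher (7.22%, against 8.36%). Within 1 Mb of Prdm1, 6 of 14 other tested genes passed without Control 2, Gm35028 upward and Bend3, Rtn4ip1, Crybg1, Prep and Bves downward. Between 1 and 2 Mb 2 of 10 passed, between 2 and 5 Mb 10 of 31, and beyond 5 Mb 16.3%. With all 6 libraries Gm35028 and Bves were the 2 that passed within 1 Mb. Bves, a cell adhesion gene, measured 3.71, 4.93 and 3.97 CPM in Controls and 1.17, 1.27 and 1.16 CPM in deficient libraries (log2 fold change -1.68 and -1.81). Crybg1 measured 384, 188 and 354 CPM against 215, 253 and 252 CPM, so its groups overlapped through Control 2. The other falls within 1 Mb were at most 0.40 on the log2 scale. The floxed allele lies on this chromosome, so genotype at Prdm1 and at its neighbours cannot be told apart here.

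**Figure D5:**
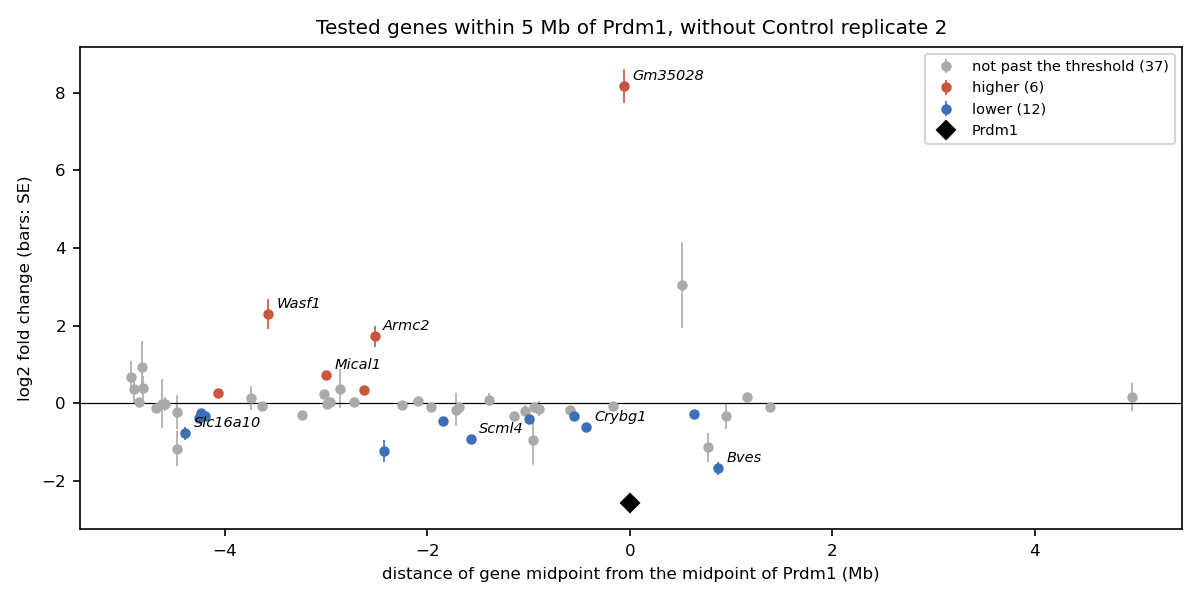
Log2 fold change without Control 2 (vertical axis, bars show the standard error) of the 55 tested genes within 5 Mb of Prdm1 against the distance between gene midpoints in Mb (horizontal axis). Gm35028 stands at 8.17 beside Prdm1 at -2.57; of the others 5 rose and 12 fell.

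Neighbouring genes were counted in windows of 500 kb, and those with at least 5 rises or 5 falls were chosen after their values were known. Of all genes tested, 8.25% rose and 5.72% fell, and windows chosen for their counts exceed these shares by the choice. On chromosome 17 from 35000001 to 35500000, 14 of 35 tested genes rose, among them Lta, Tnf, Ltb and class I genes of the H2-Q group. Around Csf2 and Il3 on chromosome 11, from 54000001 to 54500000, 8 of 10 rose, including P4ha2, Acsl6 and Fnip1, which are not cytokine genes. The Trim30 region of chromosome 7 had 7 of 10, and the Ifi200 region of chromosome 1 had 6 of 10. Tnfsf15 and its neighbour Tnfsf8 lie in a window of chromosome 4 in which 6 of 7 rose. Over all 6 libraries 3 genes passed in the chromosome 17 window, Ltb, Tnf and H2-Q7, and 1 each in those of chromosomes 1 and 4, Ifi213 and Tnfsf15. In those of chromosomes 11 and 7 edgeR then gave 0, although 6 and 5 of the genes had an unadjusted p below 0.05 and DESeq2 gave 6 and 5. At the T cell receptor gamma locus on chromosome 13, 6 of 13 rose, and Tcrg-C1 measured 19.4, 12.6 and 17.8 CPM in Controls and 66.0, 50.8 and 59.8 CPM in deficient libraries and was the one of these that also passed with Control 2 (adjusted p = 0.0232). Falls filled 2 windows in this way, with 5 of 27 genes on chromosome 7 from 126500001 to 127000000 and 5 of 15 on chromosome X from 73500001 to 74000000, and with all 6 libraries edgeR gave 0 of these, 2 and 5 had an unadjusted p below 0.05 and DESeq2 gave 1 in each.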

How the data were processed

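RNA of cultured ILC2s was converted with the SMART-seq v4 and Nextera XT kits. Sequencing gave paired-end reads of 75 bases. Per the study's methods the authors removed adaptors (cutadapt), used HISAT2 on GRCm38, where the submitters' processing notes name Bowtie2, and obtained gene counts from Subread. The deposited tables hold raw counts, gene lengths and TPM, each a table of all 6 libraries. The strand setting is not given in the sources used here. TPM served only to check the ribosomal share, which was 94.2% of the deposited TPM in Control 2. Depth was 13570188 to 76448945 counts per library.

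Counts of the 6 libraries were tested with edgeR 4.0.16 (R 4.3.3) using TMM, filterByExpr, the quasi-likelihood test and Benjamini-Hochberg adjustment over all genes tested, two-sided, at 0.05, with Control and Blimp-1-deficient as the groups. Tests without Control 2 compare 2 with 3 libraries. CPM values exclude the 8 ribosomal loci CT010467.1, Gm23935, Gm26917, Gm15564, Mir6236, Lars2, mt-Rnr1 and mt-Rnr2. The fit was tested on simulated data, in which the share of false calls exceeded the threshold in both comparisons and smaller changes were often missed with all 6 libraries. Within-group pairs differed by more than sampling noise (chi-square per degree of freedom of at least 22.4). The 8 libraries of the stimulation experiment were not used. The labels number separate mice, whereas a legend of the study speaks of sorting samples pooled from more than 1 animal, so p-values measure the spread between these samples.

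Named genes are markers, among them Prdm1, Ctse, Tnf and Lif, and, in each direction, the 15 largest log2 fold changes without Control 2 among genes past the threshold there, with the same sign and an unadjusted p below 0.05 over 6 libraries, a mean of at least 5 CPM and groups that do not overlap. Within a list, members passing in both comparisons are named first, then those of smallest p, and further members were named after their values were seen. The members, the naming rule and the 44 gene lists were chosen with earlier results of these data known. Alternatives were RLE size factors, ribosomal loci removed, DESeq2 1.42.0, voom with sample quality weights (limma 3.58.1), other filters on low counts, a block for the replicate number and the omission of each library in turn. Coordinates and shared 75-base stretches come from GENCODE M21, and figures were drawn with matplotlib 3.10.9. Results of some genes that the rule names are not reported here.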

Additional observations from a re-analysis of the deposited data

How the results depend on the processing

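With all 6 libraries, 78 genes rose and 53 fell. These counts were 581 and 473 with DESeq2, 1295 and 926 with voom and sample quality weights, and 149 and 107 at a mean count of at least 50; with RLE size factors, without the ribosomal loci or without a filter they stayed within 1.5 times. Leaving out single libraries gave 0 to 1483 rises and 0 to 1027 falls. The upper ends are those without Control 2, and leaving out Control 1 or 3 gave 7 or 5 rises and 2 falls each. Without Blimp-1-deficient replicate 1, 2 or 3 there were 0, 1 and 0 rises and 0 falls each with edgeR, although 1172, 1271 and 1173 genes had an unadjusted p below 0.05. Without Control 2, 1483 genes rose and 1027 fell, and 1664 fell with DESeq2 and 2331 rose without a filter. Leaving out a further library gave 609 to 1117 rises and 343 to 674 falls, the fewest without Control 1 (609 and 343, of which 545 and 321 were also found with it), then without Control 3 (824 rises); falls were 613, 566 and 472 without Blimp-1-deficient replicate 1, 2 or 3. The replicate number as a block gave 0 rises and 0 falls with all 6 libraries (1380 genes at an unadjusted p below 0.05), and 1938 and 978 without Control 2. Deviations of same-numbered libraries from their group means had r across genes of -0.141, -0.169 and 0.146, and those of unlike numbers -0.235 to 0.199. The Control means include Control 2, so these values cannot decide whether the numbers pair the libraries. Named genes were chosen for the size and sign of their change and for passing the threshold without Control 2. Neither their direction nor a kept call is therefore a sign of stability. Without Control 2, they kept their call in 224 refits with other settings and in 156 that left out a further library, and 4 of the latter kind, all for Nkg7, lost it. Leaving out Control 1 as well gave log2 fold changes of 3.03 for Cxcl10 and -1.99 for Slc13a5, and leaving out Blimp-1-deficient replicate 1 gave -2.40 for Nkg7, each over 1.5 times from the value without Control 2. With all 6 libraries they lost a call in 23 refits with other settings and gained one in 21 (180 stayed on their side of the threshold), and lost one in 99 that left out a library and gained one in 10 (83 stayed). The causes of these differences were not tested. The depth of Control 2, at 0.925 CPM for 3 counts, limits comparisons of low genes with all 6 libraries.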
